A study of Caenorhabditis elegans with 4 samples.

Results

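The regions described here are the 267 binding regions of the nuclear hormone receptor NHR-237 that lie on chromosome II in the combined list of a chromatin immunoprecipitation sequencing (ChIP-seq) experiment in Caenorhabditis elegans embryos. They were chosen by chromosome name alone, and they make up 15.9% of the 1679 regions in that list. All 4 samples of the study are embryos of strain OP228, grown at 20 °C from a mixed population of males and hermaphrodites. The strain carries unc119(ed3) and the insertion wgIs228, a bombarded transgene in which nhr-237 is joined to TY1, EGFP and FLAG and which also holds unc119. Chromatin from 2 ChIP samples was collected with anti-GFP antibodies, and 2 input samples hold total DNA of the same lysates. Each ChIP sample has its own region list, while the combined list belongs to no single sample. No region list from the input samples or from untagged worms was analysed here, so the regions were not set against a background measured the same way. Nothing in the labels gives a separate culture for each replicate, and differences between them may therefore be technical.

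Nuclear hormone receptors are transcription factors that bind DNA through a zinc finger domain and carry a second domain that, in many members, binds a small lipophilic ligand. The family is greatly expanded in nematodes, and most of its worm members have no known ligand. Worm chromosomes are holocentric, so their arms are not set off by a centromere. Arms and centre of an autosome are instead told apart by recombination, which is frequent on the arms, and by gene content, since centres hold more of the conserved and essential genes while arms are richer in repeats.

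Chromosome II held 1328 regions in the replicate 1 list and 1899 in the replicate 2 list. The 3 lists together span bases 702 to 15272952 of II on the WormBase WS220 build. Over this span the combined list has 17.5 regions per Mb, behind I and III among the 6 nuclear chromosomes, the others of which range from 10.8 on V to 23.4 on I. This is 1.04 times the number that the length of II accounts for, a difference that did not pass the test (two-sided exact binomial test, adjusted p = 0.46 over 6 chromosomes). The combined regions cover 120 kb of II in all. The regions are named by position alone, because no gene annotation or genome sequence of this build was used here.

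The regions were not evenly placed along II: the left end, with the low coordinates, was sparse, and the middle and the right end were about equally dense. No boundaries of arms and centre on this build were at hand. Equal parts were used instead, and they need not match arms or centre. When II was cut into 3 equal parts of 5.09 Mb, the left part (bases 702 to 5091452) held 48 regions. The middle part (5091453 to 10182202) held 108 and the right part (10182203 to 15272952) held 111. These counts are 9.43, 21.2 and 21.8 regions per Mb. The middle share of 40.4% (exact Clopper-Pearson 95% interval 34.5 to 46.6) exceeded an equal share of 33.3% (two-sided exact binomial test, adjusted p = 0.032 over 6 chromosomes). That excess was lost among the better 50% of the combined list, where the middle share was 34.6% (adjusted p = 0.85, two-sided exact binomial test). A middle share above 33.3% was not particular to II. In the whole combined list I (39.5%), III (39.5%) and V (49.1%) also passed the same test against 33.3%. IV (37.7%) and X (29.0%) did not pass it. The outer parts of II differed from those of I, III and V, however. On II the right share was as high as the middle one, at 41.6% (35.6 to 47.7), and only the left share (18.0%) was below 33.3%. On I, III and V both outer shares were below the middle one, between 24.8% and 31.4%. The tests count each region as independent, although regions come from the same samples and are no replicates.

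The outer parts also differed from each other, and this contrast passed the test among the better 50% as well. The right part held 2.31 times as many regions as the left part. Of the 159 regions in the 2 outer parts, 30.2% lay on the left (23.2 to 38.0; two-sided exact binomial test against 50%, adjusted p = 3.8e-06 over 6 chromosomes). This comparison was chosen after the counts had been seen. Among the better 50% of the list the left share of the outer regions was 31.5% (22.0 to 42.2; adjusted p = 0.0037, same exact test). When regions with midpoints within 10 kb were joined, so that dense groups counted once, it was 34.7% (26.2 to 44.1; adjusted p = 0.0067, same exact test).

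Both replicate lists were lopsided in the same direction, less steeply over their full length. They are longer than the combined list, with 8318 and 12682 nuclear regions against 1679. When each was cut to its first 1679 nuclear regions by peak number, the left share of the outer regions was 30.6% in both. The intervals were 23.2 to 38.8 in replicate 1 and 23.5 to 38.4 in replicate 2. In the full replicate 1 list the left, middle and right parts held 344, 539 and 445 regions. The left share of the outer regions there was 43.6% (40.1 to 47.1; exact binomial test, adjusted p = 0.00073). In the full replicate 2 list these parts held 472, 757 and 670 regions, and the left share was 41.3% (38.5 to 44.3; exact binomial test, adjusted p = 3.1e-08). In all 3 full lists II had the lowest left share of the 6 chromosomes. On the other chromosomes of the combined list this share ran from 45.9% on X to 65.6% on IV, where the lean was to the left (57.6 to 73.0). The interval of II did not meet that of any other chromosome in the combined list, where the nearest was X with 45.9% (38.8 to 53.2). In replicate 1 it met the intervals of I (44.5 to 51.2), III (46.8 to 53.4) and X (45.9 to 51.9). In replicate 2 its upper bound and the lower bound of X both round to 44.3. No test was run between chromosomes, since 1 chromosome among 6 cannot reach a one-sided p below 0.167.

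**Figure D1:**
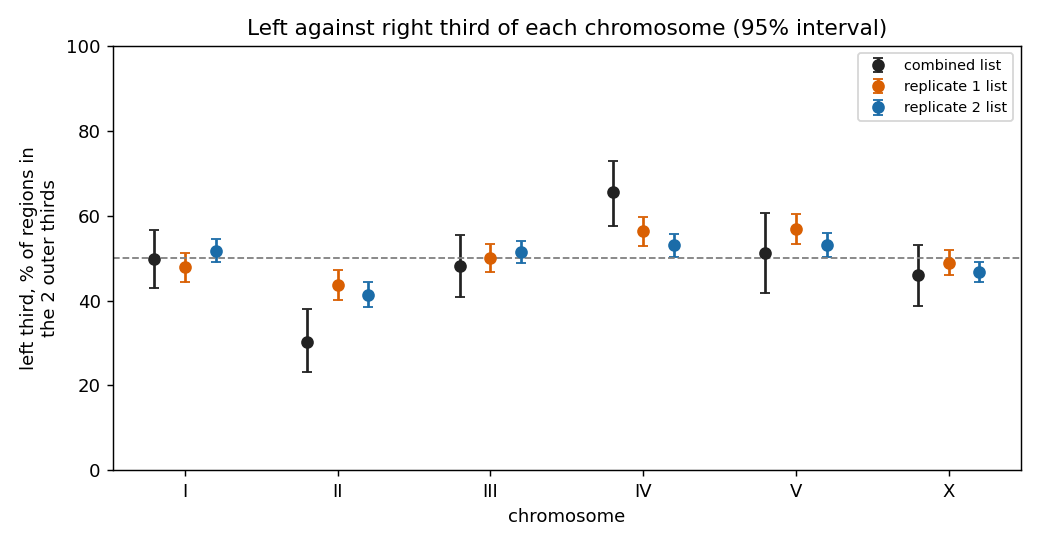
Share of regions in the left of the 2 outer parts of each chromosome (y axis, percent, with exact 95% intervals) for the combined list and both replicate lists, with the 50% line dashed. Points for II lie at 30.2%, 43.6% and 41.3%, the lowest of the 6 chromosomes in each list.

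In finer steps, with II cut into 10 equal segments, the sparse stretch was made of the 3 segments at the left end. They held 15, 8 and 14 combined regions, while the next one, bases 4582378 to 6109602, held 41, the most of all. The following segments held 33, 28, 31, 38, 20 and 39 regions. The ninth, with 20, also lay below an equal share of 10% in the combined list (7.49%), replicate 1 (8.13%) and replicate 2 (8.27%). In the replicate lists it held about as many regions as the first segment. These were 108 and 108 in replicate 1, and 157 and 156 in replicate 2. The change from the third segment to the next also appeared in replicate 1, with 104 and 178 regions, and in replicate 2, with 130 and 242. The last segment, at the right end of II, was dense in the combined list with 14.6% of the regions, against 10.4% in replicate 1 and 12.3% in replicate 2. For every 100 replicate 1 regions the first 3 segments held 13.9, 10.4 and 13.5 combined regions, and the other 7 held between 15.5 in the sixth and 28.3 in the last. For every 100 replicate 2 regions the first 3 held 9.62, 7.92 and 10.8, and the others held between 10.7 in the sixth and 18.3 in the eighth, so that the third and the sixth segment were alike there.

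**Figure D2:**
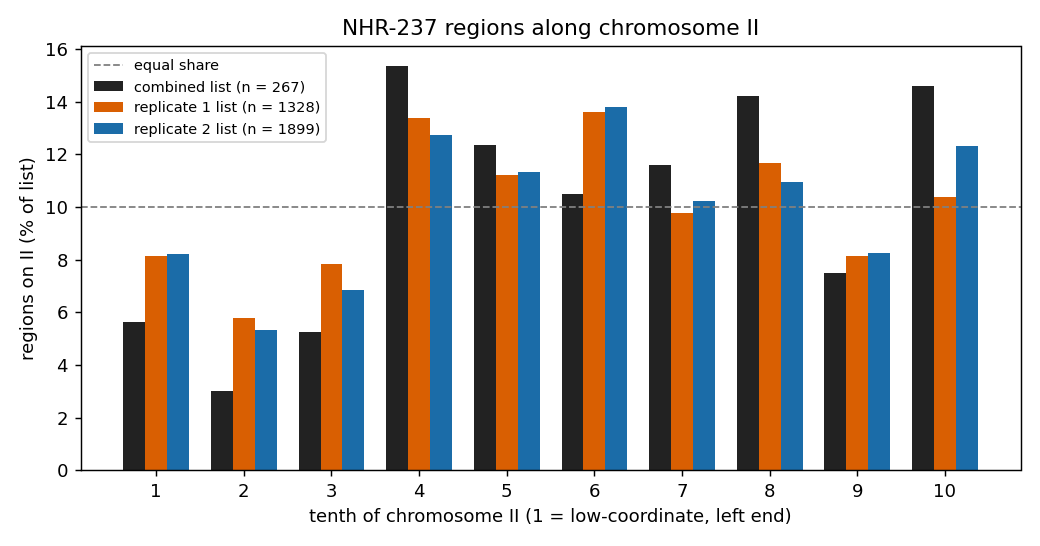
Share of the regions on II (y axis, percent of each list) in 10 equal segments of the chromosome, from the low-coordinate end at 1 to the right end at 10, with an equal share of 10% dashed. Bars show the combined list (267 regions), replicate 1 (1328) and replicate 2 (1899), and all 3 lists are below the dashed line in the first 3 segments and in the ninth.

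The deposited lists give each region a score, whose scale the file headers do not name, and a peak number. On II the peak number fell as the score rose in each list, with Spearman's rho across regions of -0.81, -0.9999 and -0.9997 in the combined, replicate 1 and replicate 2 lists, so a small number is read as a good rank. In the combined list 187 II regions are tied at the highest score, with peak numbers from 2 to 1123. Those below that score start at number 1126. The tied regions include the first 15 of II and all of its regions in the better 50%. Their order therefore rests on the peak number alone. The left share of the II regions varied with the rank by peak number. In the first 10% of the replicate 1 list by peak number, 19.6% (13.3 to 27.2) of the II regions lay in the left part, and in the second 10% it was 14.3% (8.39 to 22.2). The share was 30.4% (26.0 to 35.0) for the sixth to the eighth 10% and 27.6% (22.2 to 33.5) for the last 20%. Replicate 2 had 18.4% (13.5 to 24.2) in its first 10% and 31.1% (27.4 to 35.0) in the sixth to the eighth.

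**Figure D3:**
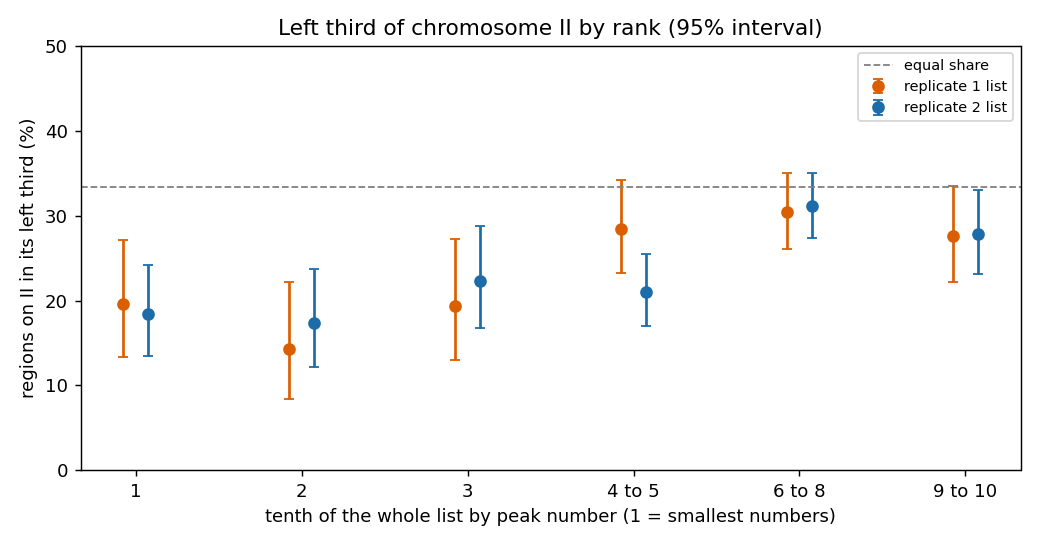
Share of II regions that lie in the left part of the chromosome (y axis, percent, with exact 95% intervals) by rank within the whole replicate list (x axis, in steps of 10% by peak number, joined where labelled). In both lists the first 3 steps lie between 14.3% and 22.3%, and the sixth to the eighth lie at 30.4% and 31.1%.

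The replicate lists were also divided by whether their regions overlapped the combined list. Of the 296 replicate 1 regions on II that overlapped a combined region by 1 bp or more, 51 lay on the left and 124 on the right, a left share of 29.1% (22.5 to 36.5) of the outer regions. Of the 1032 that overlapped none, 293 lay on the left and 321 on the right, a share of 47.7% (43.7 to 51.8). For replicate 2 these shares were 29.3% (23.0 to 36.3) and 43.7% (40.6 to 47.0). Nearly all combined regions have a counterpart in each replicate, so the shares of the overlapping regions repeat the 30.2% of the combined list and are no separate support for it. On IV, which leaned to the left, the replicate 1 regions that overlapped the combined list also stood further from 50%, with 65.7% (58.1 to 72.8) against 54.0% (50.2 to 57.8) for the others. On V the order was the other way, with 51.2% (42.2 to 60.1) against 58.0% (54.2 to 61.8). On I, III and X both shares lay between 47.2% and 50.7%. In the left part of II 52.0% (46.6 to 57.4) of the replicate 1 regions overlapped a replicate 2 region, against 63.5% (59.2 to 67.5) in the middle and 60.2% (55.5 to 64.8) on the right. Seen from replicate 2, the shares found in replicate 1 were 39.0% (34.6 to 43.5), 46.6% (43.0 to 50.3) and 43.1% (39.3 to 47.0). The left and middle intervals do not meet in replicate 1, and all 3 meet in replicate 2. On the other chromosomes together, left, middle and right shares of replicate 1 were 56.4%, 62.4% and 58.2%.

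Left-part regions in the combined list had a median peak number of 750.5, against 895 in the middle and 729 on the right. They were fewest among the last 25% of the list by peak number, where 5 of 63 II regions lay on the left (7.94%, 2.63 to 17.6), against 14 of 60 in the first 25% (23.3%, 13.4 to 36.0). Likewise, of the 80 II regions below the highest score 7 lay on the left, while 41 of the 187 tied at that score did.

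The 3 longest stretches of II without a combined region lay in the left part. The longest ran for 875 kb, from 1320784 to 2195511, and the next for 620 kb, from 626368 to 1246840. The third ran for 425 kb, from 3077399 to 3502615. Together these 3 stretches make up 37.7% of the left part, and no stretch elsewhere on II was longer than 300 kb. They were not empty in the replicate lists, which placed 78 replicate 1 regions and 110 replicate 2 regions there, 34 of the former overlapping the latter. The best of these had peak numbers 1443 in replicate 1 and 1408 in replicate 2. Only 73.9 kb separate the 2 longest stretches, and this short interval holds 2 combined regions. One of them, at 1320506 to 1320783, is number 43 of the whole combined list, behind 3 others on II, and the longest stretch starts at the base after it. A gap of this length was not particular to II. Between neighbouring midpoints the longest gap was 875 kb on II, 892 kb on V and 845 kb on IV. On I, III and X it was at most 364 kb.

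The II regions as a group ranked near the middle of the combined list. Their median peak number was 835 (interquartile range 474 to 1237.5), while the medians of the other chromosomes ran from 774 on X to 917.5 on V. The better 50% of the combined list held 136 of them, or 50.9% (44.8 to 57.1), against 46.9% on V to 53.3% on X. Their share tied at the highest score, 187 of 267 or 70.0% (64.2 to 75.5), was the highest of the 6 chromosomes, with the others between 63.1% and 68.6%. Among the first 100 combined regions, 10 lay on II, which is below its 15.9% share of the whole list. The others held 26 on X, 25 on III, 19 on I, 13 on IV and 7 on V.

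The best region on II, at 10563358 to 10563686 in the right part, is number 2 of the combined list. It is number 8 in replicate 1 and number 1 in replicate 2, and the midpoints of the replicate regions lie 6.5 bp apart. The second, at 8561249 to 8561537 near the middle, is number 17, with replicate numbers 16 and 18. The third, at 5844736 to 5844873, is number 39, with replicate numbers 32 and 46.

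Next in order came the region next to the long empty stretch named above, with replicate numbers 48 and 55. It was followed by 11967548 to 11967807 (number 54), 8185025 to 8185254 (56), 6951441 to 6951591 (71), 7151909 to 7152398 (88) and 9112883 to 9113023 (89). The tenth region lay at 14794887 to 14795100 (100). The remaining 5 of the first 15 lay at 14154406 to 14154561 (101), 4376637 to 4377126 (108), 11097407 to 11097642 (111), 11238998 to 11239213 (133) and 12102429 to 12102621 (142). All 15 had a counterpart among the first 200 regions of each replicate. Of these 15 regions 2 lay in the left part, 6 in the middle and 7 on the right.

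At the other end of the order, the last II region, at 11561572 to 11562061, is number 1679 of 1679, with replicate numbers 2647 and 1746. Number 1672, at 14969151 to 14969640, had number 7125 in replicate 1 but 1067 in replicate 2, the largest replicate 1 number among the II regions. Number 1670, at 7669433 to 7669922, had numbers 1563 and 1785. Over the 264 II regions with a counterpart in both replicates, the peak numbers correlated with a Spearman's rho of 0.55, given as a description across regions from the same samples. The rho was lower only on V (0.53) and reached 0.70 on X. In 173 of the 264 (65.5%, 59.5 to 71.2) the 2 numbers were within 2-fold of each other, against 66.4% (63.9 to 68.9) on the other chromosomes together.

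**Figure D4:**
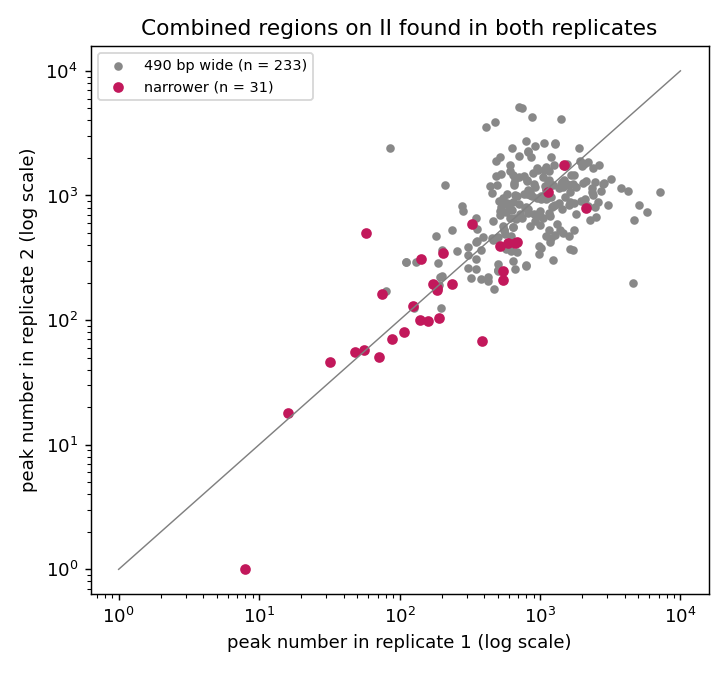
Peak number of the best overlapping region in replicate 1 (x axis) and replicate 2 (y axis), both on log scales, for the 264 combined regions on II found in both, with the line of equal numbers. Narrow regions (31, in red) fill the lower left, and regions of 490 bp (233, in grey) crowd the upper right.

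Width varied with rank. Of the 267 regions 236 were exactly 490 bp wide, the most frequent width of the combined list, and are tied as the widest. The other 31, or 11.6% (8.03 to 16.1), were narrower, from 122 to 329 bp with a median of 185 bp. The narrowest were 9716754 to 9716875 (122 bp, number 399), 8569405 to 8569536 (132 bp, number 147) and 14441184 to 14441317 (134 bp, number 542). Narrow regions had a median peak number of 163, against 874 for those of 490 bp. The other chromosomes also had this difference, and it was wider there. Their regions not 490 bp wide had medians from 52 on X to 123 on IV, against 921 on X to 991 on III at 490 bp. On II narrow regions made up 9 of the first 10 regions, 13 of the first 15 and 21 of the first 30, and 3 of the 31 were outside the better 50% of the list.

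The midpoints of the replicate counterparts of narrow regions lay a median of 17 bp apart, against 24 bp for regions of 490 bp. On the other chromosomes the share of regions not 490 bp wide ran from 10.2% on V to 16.3% on III. Regions wider than 490 bp occurred on X alone, with 9 of 276. Along II, 6 of the narrow regions lay in the left part, 11 in the middle and 14 on the right.

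Clusters were described after overlapping entries had been merged, which left 260 regions on II. Of these, 102 had a neighbouring midpoint within 10 kb, or 39.2% (33.3 to 45.5), the second highest share of the 6 chromosomes, with the others between 29.5% on V and 43.4% on I. They formed 43 clusters, of which 32 were pairs, 7 were triplets and 4 were larger. The share of clustered regions was 23.4% (12.3 to 38.0) in the left part, 37.1% (27.9 to 47.1) in the middle and 48.1% (38.4 to 58.0) on the right, in the same order as the number of regions. Whether clustering goes beyond what this density gives was not tested. The share fell to 23.9% among the better 50% of the list, where there are fewer regions to be neighbours.

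The largest cluster held 5 regions between 5321742 and 5346612, in the middle part, with peak numbers from 570 to 1495. The replicates placed 18 and 22 regions within it, the most of any cluster on II with 4 or more regions. Clusters of 4 regions lay on the right at 10541917 to 10552439, at 11634127 to 11637638 and at 14383548 to 14405542. The one at 11634127 packed its 4 regions into 3.51 kb, the tightest of these clusters. Its peak numbers ran from 553 to 1464, and each replicate had 5 regions there. The cluster at 14383548 holds the best-ranked member of these, number 162. None of the 4 clusters holds one of the first 15 regions of II.

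On II 7 pairs of combined regions overlapped each other. Their midpoints lay 191.5 to 230 bp apart, and they shared 84 to 291 bp. In all 7 pairs both members had the same best counterpart in replicate 1 and the same best counterpart in replicate 2. The counterpart is the best-numbered of the regions met, so sharing it need not mean that only that region was met. Each member of these pairs met 2 regions in replicate 2, and also 2 in replicate 1 except in the pair at 13335051. Both members of that pair met 1 region of replicate 1. The best pair was the third region of II, at 5844736 to 5844873, with 5844790 to 5845279 (numbers 39 and 235). The next were 5543342 to 5543831 with 5543544 to 5544033 (160 and 938) and 14561618 to 14561850 with 14561681 to 14562170 (475 and 975). Chromosome X had 13 such joined entries and I had 11, while V had 2.

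The combined regions were then traced in the replicate lists. Since the source field of the combined list names the irreproducible discovery rate procedure, which compares replicates, a high share of counterparts is in part built in. Of the 267 regions 265 overlapped a replicate 1 region by 1 bp or more (99.3%, 97.3 to 99.9) and 266 a replicate 2 region (99.6%, 97.9 to 100). On the other chromosomes the share found lay between 98.7% and 99.7% in replicate 1 and between 99.4% and 100% in replicate 2. When each region of a pair had to cover 50% of the other, 91.0% and 94.0% of the II regions were found. The median distance from the midpoint of a combined region to that of its counterpart was 17 bp in replicate 1 and 15 bp in replicate 2.

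A combined region met 1 region in each replicate in 177 cases and 2 regions in each in 26. In replicate 1, 44 combined regions met 2 regions, and in replicate 2, 69 did, a share of 16.5% and 25.8%. Both shares were the second highest of the 6 chromosomes, after X with 23.9% and 31.9%. Regions that met 2 in replicate 2 had counterparts a median of 42 bp apart between replicates, against 22 bp for those that met 1. The counterpart is the best-numbered region met and not the nearest, so this difference can be in part built in.

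Only 3 combined regions on II lacked a counterpart in a replicate. At 8157900 to 8158389 (number 1329) replicate 1 had a region numbered 1231 and replicate 2 had none. At 2504377 to 2504866 (number 1656) and 10784962 to 10785451 (number 1660) replicate 2 had regions numbered 823 and 862, both at the highest score of that list, and replicate 1 had none. These last 2 combined regions lie near the end of the combined order.

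Seen from the replicate lists, 789 of the 1328 replicate 1 regions on II overlapped a replicate 2 region (59.4%, 56.7 to 62.1), the third highest share of the 6 chromosomes, with V lowest at 55.0% and III highest at 62.5%. From replicate 2, 826 of 1899 were found (43.5%, 41.3 to 45.8), second to III with 43.7%. All 138 II regions in the first 10% of replicate 1 had a counterpart in replicate 2 and in the combined list. In the second 10%, 96.4% (91.1 to 99.0) were found in replicate 2 and 76.8% (67.9 to 84.2) in the combined list, and in the last 10% these shares were 35.0% (26.5 to 44.2) and 2.50% (0.519 to 7.13). The other chromosomes together were close to this, with 99.7% found in replicate 2 and 99.3% in the combined list in the first 10%. In the second 10% they had 94.2% and 69.8%, and in the last 31.7% and 1.82%.

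In replicate 2 the shares on II and elsewhere parted at 2 places of the order. The second 10% had 68.5% (61.2 to 75.1) of II regions found in replicate 1, against 79.2% (76.6 to 81.5) on the other chromosomes. In the fifth 10% the shares were 44.4% (37.1 to 51.8) on II and 28.3% (25.6 to 31.0) elsewhere. These are 2 of 20 such comparisons made over both lists, picked because their intervals do not meet, and the difference was not tested.

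**Figure D5:**
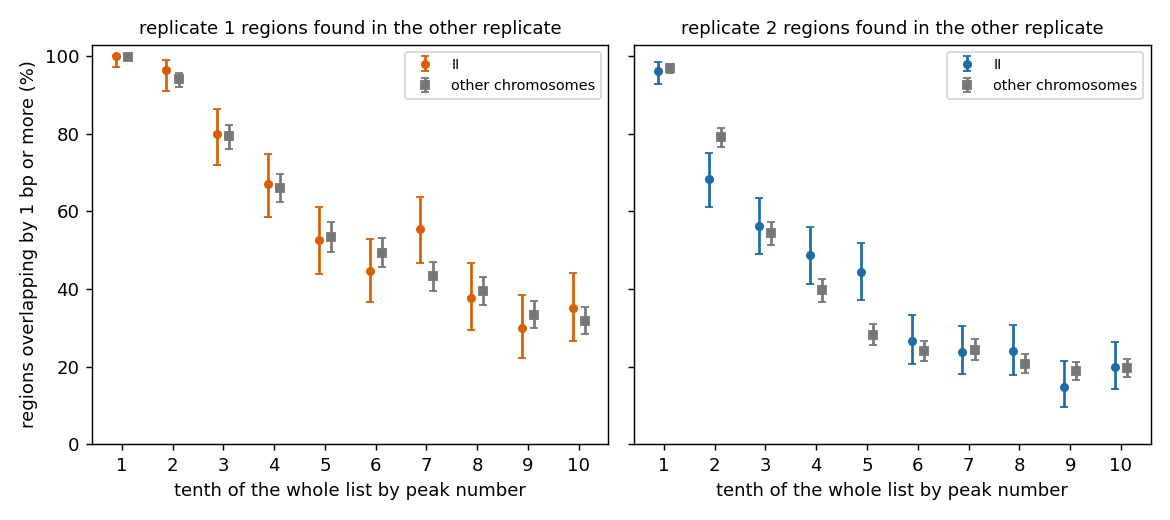
Share of replicate 1 regions (left panel) and replicate 2 regions (right panel) that overlap a region of the other replicate by 1 bp or more (y axis, percent, with exact 95% intervals), by 10% steps of peak number in the whole list. Circles are II and squares are the other chromosomes; in replicate 2 II lies lower in the second step (68.5% against 79.2%) and higher in the fifth (44.4% against 28.3%).

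The best replicate 1 regions on II with no replicate 2 counterpart lay at 9054525 to 9054988 (number 886), 9621015 to 9621478 (905) and 8157917 to 8158380 (1231), all in the middle part. The best replicate 2 regions with no replicate 1 counterpart lay at 13237705 to 13238174 (number 793), 2504387 to 2504856 (823) and 10784981 to 10785450 (862). Of these 6 regions 3 overlap the combined regions named above that lack a counterpart. Regions found in both replicates but not in the combined list numbered 494 in replicate 1, or 62.6% of its shared II regions, and 507 in replicate 2, or 61.4%. Both shares lay within the range of the other chromosomes. That range was 57.0% on I to 65.3% on X in replicate 1, and 56.5% on I to 65.4% on V in replicate 2. The site with the smallest numbers among such II regions was 10174211 to 10174674 in replicate 1, number 934 there, which overlaps 10174230 to 10174699, number 825 in replicate 2. The next in replicate 1 were 5660860 to 5661323 (1056) and 11492744 to 11493207 (1118), whose replicate 2 numbers were 2119 and 6318. In replicate 2 they were 8716326 to 8716795 (970) and 8106996 to 8107465 (991), whose replicate 1 numbers were 3294 and 3888.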

How the data were processed

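Region lists from 2 ChIP samples and a combined list were used. Per the file headers, the build is WormBase WS220; the second field of each line names the caller SPP and the irreproducible discovery rate procedure. The score in each list is the authors' deposited value on a scale that is not stated, and it was used with the peak number only to describe and order regions within a list. How reads were aligned, which versions and thresholds applied and how replicates were combined is not given in the sources. The lists hold no read counts, so depth is unknown, and intervals cover counting error over regions only.

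From these lists, overlaps (1 bp or more), 3 equal parts of each chromosome (first to last base covered by any list), neighbours within 10 kb and widths were computed with Python 3.11.15, numpy 2.4.6, pandas 2.3.3, scipy 1.17.1 and matplotlib 3.10.9. The best-numbered overlapping region served as counterpart. Exact binomial tests were adjusted by Benjamini-Hochberg over the 6 nuclear chromosomes. Overlap, part and neighbour counts were checked on made-up regions with known answers. Regions were named by a fixed rule: the first 15 and last 3 on II, the narrowest, those lacking a counterpart, overlapping pairs, the largest clusters, the longest empty stretches, and the best replicate regions without a counterpart. All 4 clusters of 4 or more regions are named, where the rule gave 3, because 3 of them tie. The regions and comparisons were chosen with earlier results of these data known. A gene table on WBcel235 was left out, since its build differs.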

Additional observations from a re-analysis of the deposited data

How the results depend on the processing

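Under 45 alternatives, 24 values kept both direction and threshold side or lay inside the main interval. The left share of outer regions, with all its alternatives added after seeing the data, passed in each of 7, from 28.0% (outermost of 5 equal parts) to 41.6% (left against right 50% of II). The middle share of 40.4% missed the test among the better 50% of regions, at 34.6%. It passed in each of its other alternatives. Among these were 40.4% with overlapping entries merged and 69.3% in the middle 3 of 5 equal parts, against an equal share of 60%. To leave out replicate 1 or 2, the first 1679 nuclear regions of the other replicate list replaced the combined list. These lists are also among the alternatives for the left and middle shares. The ratio of II to its length, which passed no test, was 1.06 without replicate 1 and 0.98 without replicate 2. The cause was not tested. Clustered shares were 17.7% within 5 kb, 54.6% within 20 kb and 23.9% among the better 50%. In place of the better 50% by peak number, the highest score held 70.0% of II regions and the better 25% held 22.5%. Narrow regions were 20.6% of the better 50%. Combined regions were found in replicate 1 and 2 to 91.0% and 94.0% when 50% of both had to overlap, to 97.0% in the better 50% of replicate 1, and to 100% for the better 50% of the combined list. Replicate 1 regions found in replicate 2 went from 59.4% to 52.4% with 50% of both, 52.0% with midpoints within 200 bp, 47.8% in the better 50% of replicate 2 and 78.6% for the better 50% of replicate 1; from replicate 2 these were 38.3%, 37.1%, 30.1% and 63.8%, against 43.5%. No paired analysis was possible because the ChIP samples share numbers with input samples alone, for which no values were used here. With no read counts, the limit set by depth was not measured.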
